A study of Mus musculus with 35 samples.

Results

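The mitochondrial ribosomal protein genes are the nuclear genes that encode the protein part of the mitochondrial ribosome. They were taken as the protein-coding genes of the hippocampal mRNA counts whose mouse symbol begins with Mrpl or Mrps and a number, without pseudogene symbols. This gave 76 genes of 43629 identifiers in the count table, 47 with an Mrpl and 29 with an Mrps symbol, on 17 chromosomes. The libraries came from the left hippocampus of wild type C57BL/6J mice of both sexes, aged 6 to 7 weeks, in which status epilepticus (SE), a prolonged seizure, was induced with intraperitoneal pilocarpine, a muscarinic agonist, at a labelled dose of 350 mg/kg. The study's methods give this as the first dose, followed by smaller doses until seizures were reached. Controls received saline vehicle, and the study's methods describe scopolamine, a muscarinic blocker that limits peripheral effects, as given first. RNA was taken 1 h (2 control and 3 SE libraries), 8 h (3 and 2), 36 h (3 SE) and 120 h (3 SE) after seizure onset, and 3 controls served both later times. The sources used here do not tie every library to a mouse of its own, so p-values measure the spread between libraries. The sex of each mouse was not used here, and the pieces of tissue hold neurons and all other hippocampal cells. Fewer cells of a type and less RNA per cell therefore cannot be told apart.

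Mitochondria carry their own small genome, and its mRNAs for subunits of the respiratory chain and of ATP synthase are translated on a dedicated ribosome. The small subunit of that ribosome binds and decodes the mRNA, and the large subunit forms the peptide bond. The RNA part is transcribed from the mitochondrial genome, whereas all proteins are made in the cytosol from nuclear mRNAs and imported. Some of the proteins descend from bacterial ribosomal proteins, and others were added in the mitochondrial lineage. Neurons depend on oxidative phosphorylation for synaptic transmission and ion pumping.

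Among the 76 genes, 49 encode proteins of the large subunit and 26 of the small subunit, and 48 have a bacterial counterpart whereas 27 are specific to mitochondria. Symbol and subunit differ for a few members. Mrps30 and Mrps18a carry small subunit names but encode proteins of the large subunit, and Mrps36 encodes a protein now known as a subunit of the 2-oxoglutarate dehydrogenase complex of the citric acid cycle. The gene models were short, with a median exon length of 1700.5 bases (range 412 to 8079) against 2907 for all protein-coding genes in the table. Exons of 6 members overlapped another gene on the same strand and those of 22 overlapped a gene on the other strand. Reads on shared bases of the 6 may therefore have been left out or assigned to a neighbour, which was not tested. The strand setting of the counting is not known, so this may also hold for the 22. Among those, Mrps25 shares 3533 of 6576 exon bases and Mrpl19 1962 of 5450.

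The starts of the genes that led the list at 8 h are shown before the values. Over all members, motifs of known regulators were more frequent at their starts than at the starts of all genes. Promoter windows of 250 bases before to 50 bases after the start (RefSeq, GRCm38.p6) were found for 67 of the 76 genes, 73 windows in all. They were searched on both strands for the letters of the NRF1 palindrome (NRF1 is a regulator of nuclear genes for mitochondrial proteins), CCGGAAG (GABPA, an ETS factor also known as NRF2) and AAGATGGC (YY1). The GABPA letters were in 24 of 73 member windows (32.9%) against 8.86% of all 32851 windows and 11.6% of 21262 windows of protein-coding genes. The YY1 letters were in 12 (16.4%) against 2.75% and 3.05%, and the NRF1 letters in 3 (4.11%) against 0.971% and 1.33%. Of the 12 YY1 matches, 8 began after the start. Any of the 3 motifs was found for 35 of the 67 genes. Of the 13 genes with a window that were lower at 8 h with batch as a term, 6 had any motif. The windows printed here are those of the 3 members with the smallest p at 8 h in the fit with batch as a term (Mrpl42, Mrps15 and Mrpl41), and that of Mrps12, chosen after its values were seen because it holds a pair of motifs. Each runs from 250 bases before to 30 bases after the start, 5′ to 3′ on the strand of the gene, with GABPA or YY1 letters in capitals.
Mrpl42, chr10:95501920-95502199, minus strand: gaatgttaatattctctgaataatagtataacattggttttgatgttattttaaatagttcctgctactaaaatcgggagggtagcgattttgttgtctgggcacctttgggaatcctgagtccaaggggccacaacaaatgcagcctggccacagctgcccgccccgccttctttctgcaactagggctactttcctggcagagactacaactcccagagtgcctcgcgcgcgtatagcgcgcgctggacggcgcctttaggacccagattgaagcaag
Mrps15, chr4:126046678-126046957, plus strand: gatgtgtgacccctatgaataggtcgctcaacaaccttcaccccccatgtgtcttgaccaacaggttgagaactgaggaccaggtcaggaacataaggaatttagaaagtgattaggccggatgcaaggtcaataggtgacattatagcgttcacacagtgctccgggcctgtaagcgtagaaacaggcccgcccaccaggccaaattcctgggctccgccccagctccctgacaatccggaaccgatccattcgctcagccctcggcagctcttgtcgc
Mrpl41, chr2:24975069-24975348, minus strand: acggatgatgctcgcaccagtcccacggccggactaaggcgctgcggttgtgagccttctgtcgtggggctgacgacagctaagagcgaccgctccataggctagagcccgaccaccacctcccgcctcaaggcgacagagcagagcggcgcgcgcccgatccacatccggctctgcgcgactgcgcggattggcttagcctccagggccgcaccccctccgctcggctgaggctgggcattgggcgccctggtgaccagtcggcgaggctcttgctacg
Mrps12, chr7:28741792-28742071, minus strand: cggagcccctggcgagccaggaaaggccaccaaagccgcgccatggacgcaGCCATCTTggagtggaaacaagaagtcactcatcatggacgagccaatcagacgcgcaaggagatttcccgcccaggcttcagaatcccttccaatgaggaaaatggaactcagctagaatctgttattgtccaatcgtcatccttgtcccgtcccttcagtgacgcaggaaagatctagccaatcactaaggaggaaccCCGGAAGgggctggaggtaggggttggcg
The Mrpl42, Mrps15 and Mrpl41 windows hold none of the 3 motifs whole within the printed bases. In Mrpl42 the YY1 letters begin 28 bases after the start, at the end of the printed window. In Mrps12 the GABPA letters begin at the second base of the transcript (position 2) and the YY1 letters 199 bases before the start, in reverse orientation. These letters are a description of the windows and not evidence of binding.

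In the 8 control libraries the members were expressed above most genes when levels are given per length. Their median level was 13.5 CPM per kilobase of exon (CPM are counts scaled to library size), against 4.21 over 17536 protein-coding genes with a count, and 69 of the 76 lay above that value. The median was 15.02 for the large subunit and 11.0 for the small subunit.

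The highest level per length was that of Mrpl42 (61.9 ± 14.01 CPM per kilobase, SD, n = 8, range 39.9 to 83.5), a protein of the large subunit specific to mitochondria. Mrpl41, also in the large subunit, followed at 58.1 ± 11.4, and Mrpl52 at 44.7 ± 24.5. The ranges of these 3 overlapped, so their order is within the spread of the libraries. Mrpl12, the stalk protein of the large subunit, had 28.9 ± 7.29 and Mrps12, the decoding centre protein, 27.9 ± 7.53. At the other end of the order stood Mrpl33 (2.57 ± 0.750), Mrps10 (2.47 ± 0.306) and Mrps35 (2.18 ± 0.411), which have long gene models. Mrpl53 and Mrps23 were listed at 0 in all 19 libraries, which at a floor of 3 counts allows up to 0.353 CPM in the shallowest and 0.105 CPM in the deepest library. Of the 735 exon bases of Mrpl53, 640 are shared with Ccdc142 on the same strand, whereas Mrps23 shares none. The floor covers counting error only, so a listed 0 does not show that either mRNA is absent. Of the 75 pairs of neighbours in the order, 74 had overlapping ranges over the 8 controls.

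The 3 genes descended from one bacterial protein S18 had overlapping levels. Mrps18c had 13.6 ± 5.35, Mrps18a 10.03 ± 3.10 and Mrps18b 6.69 ± 1.22 CPM per kilobase, with ranges that overlapped over the 8 controls. These ranges pool libraries of different batches, and the order within each library was not compared. Mrps30 stood at 10.7 ± 1.06 and Mrps36 at 11.8 ± 3.74.

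**Figure D1:**
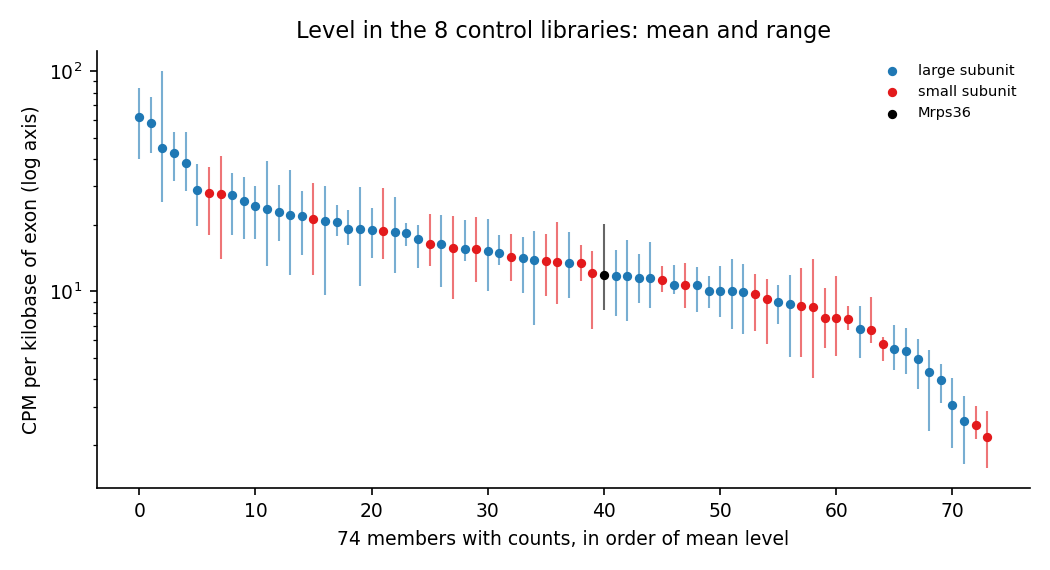
Level of 74 members in the 8 control libraries, in CPM per kilobase of exon on a log axis, in order of the mean (points) with the range over libraries (lines), coloured by subunit. Mrpl42 at 61.9 stands first and Mrps35 at 2.18 last, and ranges of neighbours overlap throughout.

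Total counts ran from 8503816 to 28465548 per library. The labels give each library a batch, without saying what was done together in one, and the 4 batches are uneven: all 36-h and 120-h libraries and their controls are G545, 8-h control replicate 1 is G511 while the other 4 libraries of 8 h are G317, and the 1-h libraries are split between G511 (control 1 and SE 3) and G369. In levels set across times, batch and time cannot be told apart. Defining markers of neurons, astrocytes, microglia and oligodendrocytes were detected in every library. Choroid plexus markers, which mark a tissue beside the hippocampus, summed to 423 to 5177 CPM at 1 h and 8 h, to 55.2 to 127 CPM in the later controls, and to 5759, 6572 and 7264 CPM in 3 of the 6 later SE libraries.

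Summed over the 76 genes, the members took a mean of 0.153% to 0.232% of the scaled library size in the 7 groups. At 1 h the sum was 1697 and 1634 CPM in the controls and 1571, 1505 and 1502 CPM in the SE libraries. At 8 h it was 1560 CPM in control 1 of batch G511, 1930 and 2112 CPM in controls 2 and 3 of batch G317, and 1623 and 1554 CPM in the SE libraries. The groups of 1 h did not overlap, whereas the 8-h SE libraries lay beside control 1 and below the controls of their own batch.

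The later libraries all lay higher, between 2165 and 2401 CPM. The 3 controls had 2307, 2391 and 2256 CPM, the 36-h SE libraries 2401, 2165 and 2365 CPM, and the 120-h SE libraries 2381, 2307 and 2277 CPM. The groups overlapped at both times. Within each library the large subunit took the greater part of the sum (1026 to 1666 CPM against 459 to 723 CPM for the small subunit).

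**Figure D2:**
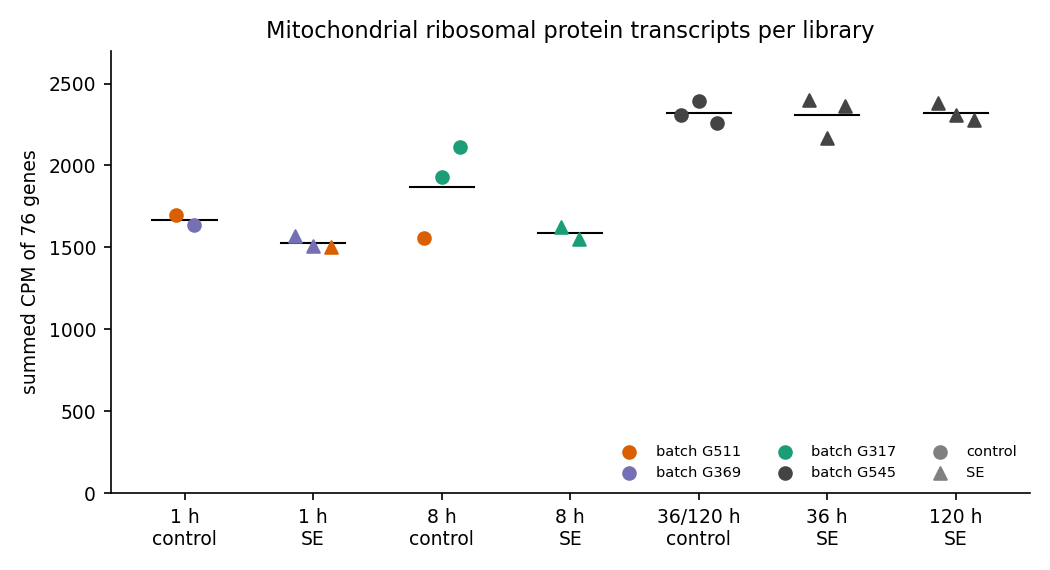
Summed CPM of the 76 genes in each of the 19 libraries, by group; circles are control and triangles SE libraries, colours are the labelled batches, and lines are group means. The 8-h SE libraries (1623 and 1554) lie near 8-h control 1 (1560) and below the other controls of 8 h (1930 and 2112), and the groups of batch G545 overlap.

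The first comparison asks which members differed 1 h after onset, in the acute phase. In edgeR's quasi-likelihood test, with Benjamini-Hochberg adjustment over all 16264 genes tested, none of 74 members passed an adjusted p of 0.05, where 0.0799% of all genes did. DESeq2 and the likelihood ratio test called none either, and an unadjusted p under 0.05 was found for 3 members (4.05%, against 4.39% of all genes). Yet the direction was uneven, with 57 of 74 members negative (77%, against 50.5% of all genes) and a median log2 fold change of -0.14 against -0.00 over all genes. In 21 members (28.4%) every SE library lay below both controls, which 8.63% of all genes did. These counts of separated groups use CPM scaled among the libraries of the comparison, whereas the CPM printed are scaled over all 19 libraries. The effects were small, and 72 of 74 were under 0.5 in size on the log2 scale.

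Mrpl15, a protein of the large subunit with a bacterial counterpart, had 34.6 and 24.1 CPM in controls and 21.8, 21.0 and 17.7 CPM in SE libraries (log2 fold change -0.53 ± 0.20, SE of the fit, edgeR adjusted p = 0.999). Mrps24 had 15.5 and 9.20 CPM against 8.50, 8.09 and 4.98 CPM (-0.76 ± 0.31), and shares 226 exon bases with Urgcp on the same strand. Mrps22, a small subunit protein specific to mitochondria, had 26.6 and 22.3 CPM against 21.4, 15.1 and 15.8 CPM (-0.48 ± 0.20). In all 3 the SE libraries lay below the controls, but the controls differed from each other by more than the lower control differed from the highest SE library. On the higher side, Mrps35 had 11.0 and 13.4 CPM against 11.7, 16.4 and 22.2 CPM (0.46 ± 0.27), so its groups overlapped. Mrps16 had 7.92 and 8.37 CPM against 9.48, 9.01 and 9.33 CPM (0.19 ± 0.19), apart but by little, and Mrpl40 stood at 0.18 ± 0.20. Batch as a term left 0 calls and a median of -0.13, and the median was -0.09 without control 1.

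At 8 h, after the seizures, the question was whether mitochondrial ribosomal protein mRNAs were altered, and the answer depended on the control library of the other batch. With all 5 libraries, 0 of 74 members passed the quasi-likelihood test, and 0% of the 15610 genes tested did. The likelihood ratio test and DESeq2 also called no member. Of the members, 10 had an unadjusted p under 0.05, 9 of them lower (12.2%, against 5.52% of all genes) and 1 higher. A negative value was found for 58 of 74 (78.4%, against 50.9% of all genes), with a median of -0.23 against -0.01 over all genes, and of -0.11 without control 3. In 19 members (25.7%) both SE libraries lay below all 3 controls, against 14% of all genes.

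With the labelled batch as a term, which sets the 2 SE libraries against controls 2 and 3 of batch G317, 14 of 74 members fell (18.9%) and none rose, where 7.54% of all genes fell and 5.98% rose. The median was -0.29 against 0.00 over all genes, and 62 of 74 were negative (83.8%, against 49.6% of all genes). Both SE libraries lay below both controls of the batch in 41 members (55.4%), which holds for 29% of all genes. Leaving out control 1 also gave 14, but this sets the same libraries against each other and is not a separate check. In the fit with batch as a term the count depended on which library of batch G317 was left out. Each of these fits leaves 1 library on one side within the batch, which is then assumed to vary like the others. Their counts are therefore not read here, and their range is given at the end with the other alternatives. The comparison within batch G317 is thus 2 against 2 libraries.

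The 14 lower members comprised 8 of the large subunit, 5 of the small subunit and Mrps36. Mrpl42 had 46.4 and 55.6 CPM in the controls of batch G317, 26.6 CPM in control 1, and 21.2 and 22.2 CPM in the SE libraries. Its log2 fold change was -1.22 ± 0.16 with batch as a term (edgeR adjusted p = 0.000937) and -0.97 ± 0.30 without (adjusted p = 0.478). Its SE libraries lay below all 3 controls. Mrps15, a small subunit protein that binds ribosomal RNA early in bacterial assembly, had 36.9 and 50.04 CPM in the controls of the batch, 23.9 CPM in control 1, and 19.1 and 21.2 CPM after SE. Its log2 fold change was -1.09 ± 0.19 with batch as a term (edgeR adjusted p = 0.0036). Mrpl41, of the large subunit, had 51.5 and 59.1 CPM, 34.6 CPM in control 1, and 31.8 and 28.5 CPM after SE (-0.87 ± 0.15, edgeR adjusted p = 0.00397). In these 3 members the SE values lay below every control, although control 1 was closer to the SE libraries than to the other controls.

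Mrps21 and Mrpl55 were among the members that differed only against the controls of the batch. Mrps21 had 32.8 and 39.6 CPM there, 16.8 CPM in control 1, and 21.2 and 20.7 CPM after SE (-0.78 ± 0.18, edgeR adjusted p = 0.0138 with batch as a term). Mrpl55 had 32.2 and 40.3 CPM, 16.9 CPM in control 1, and 22.9 and 15.7 CPM after SE (-0.92 ± 0.22, edgeR adjusted p = 0.0163). For Mrps21 both SE libraries lay above control 1, and for Mrpl55 they lay on either side of it.

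Mrps33, a small subunit protein specific to mitochondria, lay below all 3 controls after SE and passed the test in the fit with batch as a term. It had 17.0, 19.1 and 18.7 CPM in controls and 10.5 and 12.1 CPM after SE. Its log2 fold change was -0.68 ± 0.21 without a batch term (edgeR adjusted p = 0.478) and -0.72 ± 0.21 with it (adjusted p = 0.0404). Mrps25 was similar in form, with 31.9, 40.7 and 40.4 CPM against 27.6 and 22.6 CPM (-0.70 ± 0.17 with batch as a term, edgeR adjusted p = 0.0182).

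Mrps12, which lies at the decoding centre of the small subunit, had 20.0, 37.3 and 38.1 CPM in controls and 25.1 and 19.04 CPM after SE (-0.78 ± 0.18 with batch as a term, edgeR adjusted p = 0.0168). Mrps36 had 11.2, 15.6 and 25.8 CPM against 10.8 and 8.57 CPM (-1.11 ± 0.27, edgeR adjusted p = 0.0209). Mrps36 is thus among the lower members although its protein is not a ribosomal subunit. The remaining lower members, Mrpl34, Mrpl30, Mrpl54, Mrpl23 and Mrpl43, all of the large subunit, ranged from -1.02 to -0.64 with batch as a term. Mrpl34 had 6.81 CPM in control 1 and 8.47 and 9.29 CPM after SE. Mrpl54 had 5.83 CPM in control 1 and 7.55 and 6.74 CPM after SE, so in both the SE libraries lay above control 1. The SE libraries of Mrpl23, Mrpl43 and Mrps12 lay on either side of control 1, and those of Mrpl30 below it.

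The copies of S18 did not pass the test at 8 h. Mrps18a had 25.0, 31.4 and 40.3 CPM in controls against 23.5 and 24.2 CPM after SE (-0.58 ± 0.18 with batch as a term, edgeR adjusted p = 0.0502). Mrps18b was at -0.28 ± 0.22 and Mrps18c at 0.04 ± 0.25, with adjusted p of 0.441 and 0.935 in the same edgeR fit. Whether the 3 copies differ from each other was not tested. Without a batch term Mrps18b (-0.13 ± 0.25) turned positive when control 2 was left out (0.07), and Mrps30 (-0.06 ± 0.22) when SE 1 was left out (0.16). With batch as a term Mrps30 (-0.01 ± 0.22) and Mrpl12 (-0.49 ± 0.16, edgeR adjusted p = 0.0646) did not pass either.

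Few members were higher at 8 h, and none passed the test. Mrps6 had 6.46, 7.39 and 7.79 CPM in controls and 13.2 and 11.2 CPM after SE (0.76 ± 0.24, edgeR adjusted p = 0.484, and 0.68 ± 0.26 with batch as a term, adjusted p = 0.113). It shares 696 exon bases on the same strand with Slc5a3, which encodes a myo-inositol transporter and had 56.3, 39.5 and 37.6 CPM in controls and 80.5 and 73.8 CPM after SE. Slc5a3 was higher by 1.01 ± 0.13 with batch as a term (edgeR adjusted p = 0.000737), and its part in the Mrps6 value was not tested. Mrpl3 stood at 0.30 ± 0.18 and Mrps17 at 0.21 ± 0.18 without passing.

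**Figure D3:**
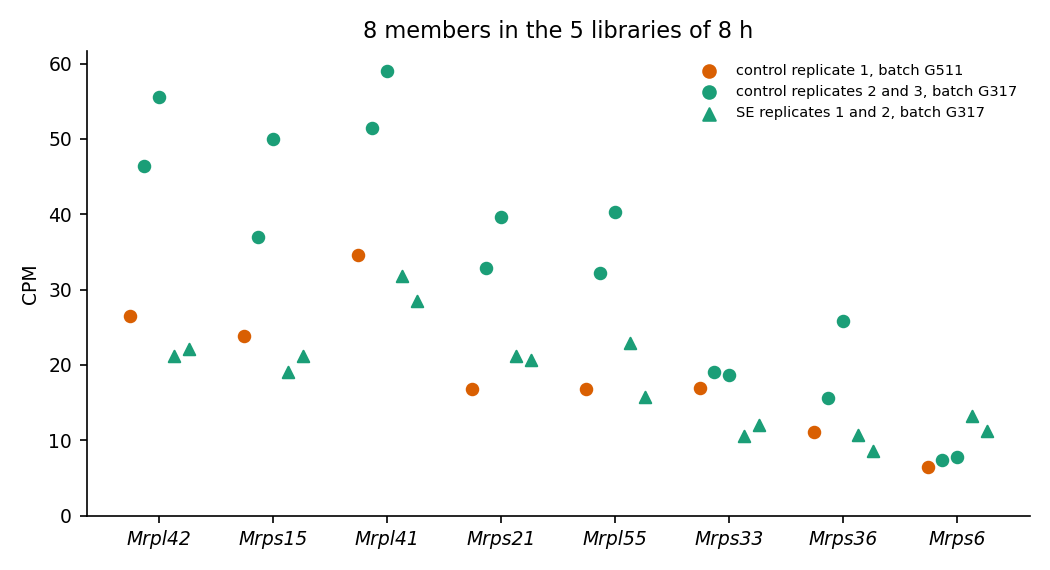
CPM of 8 members in the 5 libraries of 8 h; circles are controls (orange, replicate 1 of batch G511; green, replicates 2 and 3 of batch G317) and triangles are SE libraries of batch G317. Mrpl42 stands at 46.4 and 55.6 in the controls of batch G317 and at 21.2 and 22.2 after SE, and Mrps6 is higher after SE.

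Several other measures moved with the 8-h result within batch G317. The summed CPM of neuron markers was 8308 and 9283 in controls against 6241 and 6537 after SE, with 7008 in control 1; 3 of 7 markers fell and 1 rose in the fit with batch as a term. For astrocyte markers it was 4255 and 4517 against 4847 and 5171, with 6243 in control 1, and 1 of 6 rose. Microglia markers had 192 and 194 against 169 and 147, with 218 in control 1. Oligodendrocyte markers had 8419 and 7811 against 5742 and 6998, with 7504 in control 1. In that fit 1 of 6 microglia, 1 of 6 oligodendrocyte and 2 of 5 blood markers fell. Over all genes 7.54% fell and 5.98% rose. The part of these shifts in the lower member values was not tested.

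Fold changes at 8 h varied with transcript length too. With batch as a term, the shortest of 4 equal length classes of genes (57 to 2234 bases) had a median of -0.24 and 14.1% of its 3704 genes fell, against 7.80%, 4.83% and 4.11% in the longer classes. Of the members, 47 were in that class, with a median of -0.38 and 13 of the 14 lower members. The 12 members of the next class had a median of -0.01, and the 8 and 7 of the longest classes -0.28 and -0.40 with 1 lower member. Over the 74 members the log2 fold change and the exon length had a Spearman rho of 0.34, and over all 14816 genes with a gene model 0.27, which are descriptions across genes of the same libraries. The part of length in the member values was not tested.

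**Figure D4:**
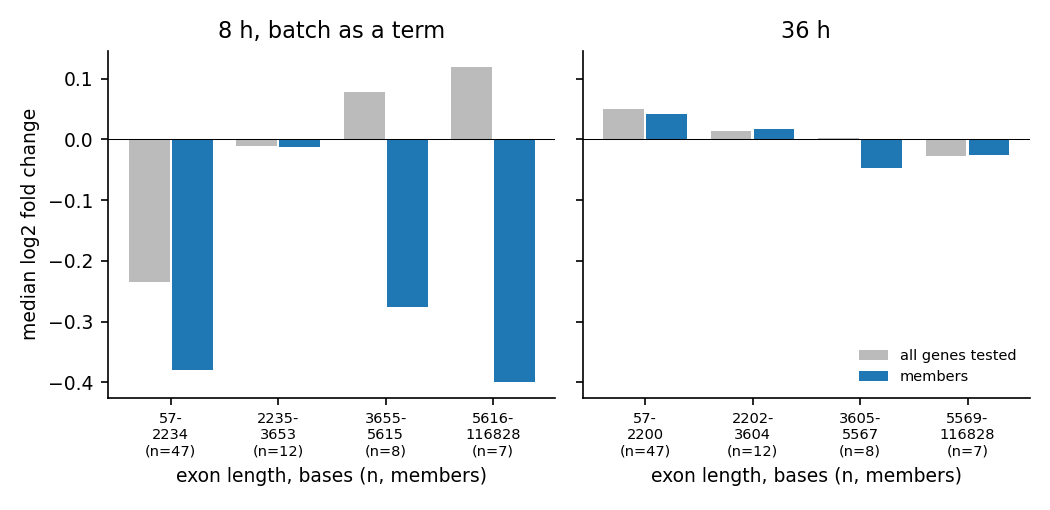
Median log2 fold change by class of exon length (4 equal classes) at 8 h (batch as a term) and at 36 h, for all genes tested (grey bars) and for the members (blue bars, with their number under each class). In the shortest class at 8 h the medians are -0.24 and -0.38, and at 36 h 0.05 and 0.04.

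The genes around the mitochondrial ribosome moved unevenly at 8 h with batch as a term. Of 71 cytosolic ribosomal protein genes, 33 fell (46.5%, against 7.54% of all genes) and 2 rose (2.82%, against 5.98%), with a median of -0.48 and Rps26 (-2.01 ± 0.13) and Rpl21 (-1.90 ± 0.13) first. Summed, this list took 4446 CPM in control 1, 6141 and 7284 CPM in the controls of batch G317, and 4655 and 4249 CPM after SE. The SE sums thus lay on either side of control 1 and below the other controls. Of 13 mRNAs of the mitochondrial genome, which the mitochondrial ribosome translates, 10 fell (76.9%), with a median of -1.40. The edgeR values were -1.97 ± 0.11 for mt-Nd2, a subunit of complex I, and -1.71 ± 0.11 for mt-Cytb, of complex III. Summed, these mRNAs took 71370, 102082 and 121254 CPM in controls against 31845 and 38363 CPM after SE, so that they were lower than in all 3 controls.

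Genes for proteins that load, build and steer the mitochondrial ribosome had between 0 and 2 calls a list in each direction, where 5.98% of all genes rose and 7.54% fell. Of 17 mitochondrial aminoacyl-tRNA synthetases, 2 rose (11.8%) and none fell: Lars2, for leucine, by 2.25 ± 0.24 (edgeR adjusted p = 0.00019) and Hars2, for histidine, by 0.72 ± 0.18 (adjusted p = 0.02). The summed CPM of this list at 8 h was 375, 544 and 640 in controls and 1304 and 2088 after SE. It also varied widely within groups, from 510 to 1029 CPM in the later controls and from 435 to 1301 CPM in the 120-h SE libraries. The part of Lars2 in this spread was not tested. Of 16 translation factors, 2 rose (12.5%), among them Lrpprc (0.49 ± 0.12), which stabilises mitochondrial mRNAs, and 1 fell (6.25%), 2810006K23Rik (-1.14 ± 0.27). Of 19 assembly factors 1 fell (5.26%), Mpv17l2 (-1.04 ± 0.25), which helps to build the ribosome. Of 7 mitochondrial ribosomal proteins with other names 1 fell (14.3%), Gadd45gip1 (-0.64 ± 0.18). With so few calls in each list, no list is read as different from all genes.

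None of 12 regulators of mitochondrial biogenesis was called at 8 h with batch as a term, where Nrf1 stood at 0.63 ± 0.25 (edgeR adjusted p = 0.118) and Myc at -1.27 ± 0.48 (adjusted p = 0.106). Of 15 tested mitochondrial stress genes 1 fell (6.67%, near the 7.54% of all genes), Hspe1 (-1.08 ± 0.15), the co-chaperonin of the matrix. Without the batch term none of these lists had a called gene at 8 h in the quasi-likelihood test, where 0% of all genes were called.

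At 36 h no member was separated from the controls by the test. In the quasi-likelihood test 0 of 74 passed (0.0252% of 15850 genes did), the likelihood ratio test and DESeq2 also called none, and 4 had an unadjusted p under 0.05 (5.41%, against 7.89% of all genes). Values were positive for 40 and negative for 34, with a median of 0.02. All SE libraries lay below all controls in 5 members (6.76%, against 6.33% of all genes) and above in 4 (5.41%, against 6.97%). On the CPM printed, 6 were below and 4 above. These shares are near those of all genes.

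The replicates of this batch were close, so that small differences separated groups. Mrpl19, of the large subunit, had 34.9, 37.1 and 34.6 CPM in controls and 30.9, 28.4 and 29.4 CPM after SE (-0.24 ± 0.09, edgeR adjusted p = 0.509). Mrpl35 had 29.7, 31.9 and 29.5 CPM against 27.6, 26.0 and 24.3 CPM (-0.21 ± 0.09), and Mrps22 was at -0.19 ± 0.10. Mrpl2, a core protein of the peptidyl transferase region, had 25.6, 26.1 and 23.3 CPM against 30.5, 27.0 and 29.8 CPM (0.24 ± 0.10). Mrps24 stood at 0.25 ± 0.11 and Mrpl34 at 0.34 ± 0.15. Choroid plexus markers were 7264 and 5759 CPM in SE replicates 1 and 2 and 56.4 CPM in replicate 3, while the summed members were 2401, 2165 and 2365 CPM.

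At 120 h the picture was alike, with the same 3 controls. In the quasi-likelihood test 0 of 74 members passed (0.0563% of 15996 genes did), neither other tool called any, and 1 had an unadjusted p under 0.05 (1.35%, against 9.60% of all genes). Values were positive for 41 and negative for 33, with a median of 0.01. Groups were apart and lower in 5 members (6.76%, against 8.20% of all genes) and apart and higher in 4 (5.41%, against 7.29%), or in 6 and 3 on the CPM printed. Mrps16, of the small subunit, had 22.4, 23.1 and 23.3 CPM in controls and 21.4, 19.6 and 18.7 CPM after SE (-0.20 ± 0.08, edgeR adjusted p = 0.484).

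Mrpl19 had 33.5, 31.8 and 30.5 CPM at 120 h (-0.15 ± 0.07) and Mrps25 was at -0.14 ± 0.07. On the higher side Mrps26 stood at 0.15 ± 0.07, Mrpl47 at 0.16 ± 0.09 and Mrpl11 at 0.11 ± 0.06. All 74 members were under 0.5 in size at 36 h and at 120 h, and the other mitochondrial lists had no called gene at either time in the quasi-likelihood test.

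**Figure D5:**
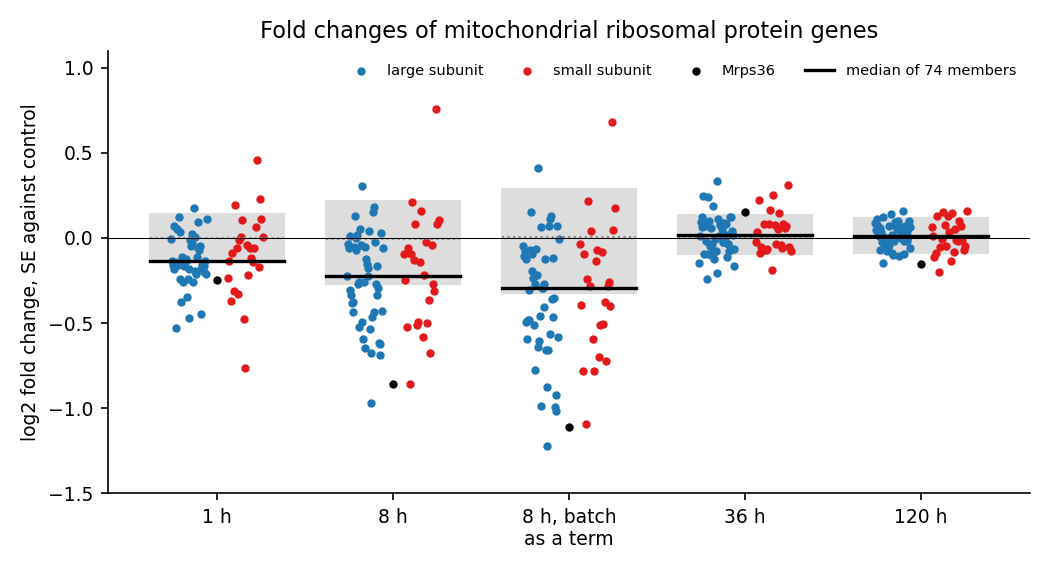
Log2 fold change (SE against control) of 74 members at each time and at 8 h with batch as a term; points are genes coloured by subunit, black lines the members' median, grey boxes the interquartile range of all genes tested with a dotted line at their median. The medians are -0.14, -0.23, -0.29, 0.02 and 0.01 from left to right.

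The changes between times were tested directly. With batch as a term the 8-h effect rests on batch G317, whereas the 1-h and 36-h libraries are of other batches. In the contrasts with 8 h, batch and time therefore cannot be told apart. Between 1 h and 8 h no member's effect differed in the quasi-likelihood test (0.012% of all genes did, and 3 members, 4.05%, had an unadjusted p under 0.05 against 6.90% of all genes). With batch as a term 1 was lower at 8 h (1.35%, against 1.87% of all genes), Mrpl42, whose effect at 8 h was lower by 1.13 ± 0.22 (edgeR adjusted p = 0.0191). Without regard to any test, 46 of 74 members were negative at both times.

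From 8 h to 36 h no member's effect differed in the quasi-likelihood test, where 0.0419% of all genes did, and neither other tool called one. Before adjustment 16 members had p under 0.05 (21.6%, against 12.3% of all genes). With batch as a term, the effect was higher at 36 h in 16 members (21.6%, against 6.26% of all genes) and lower in 1, Mrpl3 (1.35%, against 5.51%). Mrpl42 led with a difference of 1.19 ± 0.17 (edgeR adjusted p = 0.00142), and Mrpl34 had the largest, 1.31 ± 0.25. This contrast rests on the 8-h controls of batch G317. With all its libraries in the fit, it called no member when batch was left out of the model.

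Between the SE libraries of 36 h and 120 h no member passed (0.117% of all genes did), and neither other tool called one, with 11 members at an unadjusted p under 0.05 (14.9%, against 9.33% of all genes). Mrps12 was lower at 120 h by 0.34 on the log2 scale (-0.34 ± 0.10, edgeR adjusted p = 0.318) and Mrps22 higher (0.32 ± 0.09, adjusted p = 0.339). Of the 74 members, 12 were negative at all 4 times and 1 positive at all 4.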

How the data were processed

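Hippocampal polyA mRNA was sequenced with paired 53-cycle reads from a stranded kit. The authors aligned the reads with HISAT2 2.1.0 to NCBIM37 and deposited HTSeq raw counts per Ensembl gene for 19 libraries; the strand setting of the counting is not given in the sources used here. The small RNA counts were not used. Member positions and exon lengths came from gene models of Ensembl release 65 on NCBIM37.

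The members and gene lists were chosen with earlier results of these data known. Libraries were grouped by the labels. At each time SE and control libraries were compared in edgeR 4.0.16 (TMM, filterByExpr, quasi-likelihood test, Benjamini-Hochberg threshold 0.05 over all genes), in R 4.3.3, and effects between times by contrasts. Values after ± in fold changes are standard errors. CPM used TMM-scaled library sizes. Fits were tested on simulated data. Alternatives were the likelihood ratio test, DESeq2 1.42.0, RLE scaling, no filter, all 19 libraries in one fit, batch or replicate number as a term, and each library left out.

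Members named by rule were those with the 3 smallest p in each direction per time and the 5 smallest with batch as a term at 8 h. The 3 highest and 3 lowest levels, members picked by role, and up to 2 genes of each other list were added. The remaining lower members at 8 h with batch as a term were named outside these rules. Total counts of 8503816 to 28465548 per library set the precision, and floors cover counting error only.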

Additional observations from a re-analysis of the deposited data

Results flagged for a closer look

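The SE effects on mitochondrial ribosomal protein genes differed in contrasts between times when the labelled batch was a term in the model. With that term the 8-h effect rests on batch G317, whereas the 1-h and 36-h libraries are of other batches. Batch and time therefore cannot be told apart in these contrasts. By edgeR's quasi-likelihood test of the difference, 17 of 74 members differed between 36 h and 8 h, 16 of them higher at 36 h, and 1 member, Mrpl42, differed between 8 h and 1 h. Without the batch term, and with all libraries of the contrast in the fit, no member differed in either contrast. Choroid plexus and neuron markers also varied between these libraries, and fold changes varied with transcript length. The part of these in the difference was not tested.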

How the results depend on the processing

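The count of members called at 8 h, 0 as reported without a batch term, was 14 (all lower) with batch as a term. It was also 14 without control 1, which sets the same libraries against each other and is not a separate check. It was 2 (lower) without the filter on low counts and 3 (lower) with all 19 libraries in one fit. With batch as a term and each library also left out, an alternative added after seeing the data, the 14 ranged from 4 to 21, with a lone library on one side of the batch assumed to vary like the others. With batch as a term 1 member differed between 8 h and 1 h and 17 between 36 h and 8 h. Fits of these contrasts with 1 library left out had no batch term, so they are no check of these counts. Between 36 h and 8 h their count depended on the library left out, and some left 1 library in a group. The median at 1 h (-0.14) ranged from -0.1543 to -0.0883 when a library was left out. The counts at 1 h, 36 h and 120 h stayed at 0 under every alternative run, and the other medians moved by less than 1 SD between replicates, that SD being wide at 8 h. Directions were checked for 50 pairs of a gene and a time picked by the naming rules, not for every gene named here. Among these pairs, leaving out 1 library of 8 h turned 3 directions. Mrps18b ranged from -0.2901 to 0.0691 (positive without control 2) and Mrps30 from -0.3364 to 0.1568 (positive without SE 1). Chchd1, a mitochondrial ribosomal protein with another name, ranged from -0.0112 to 0.8365 (negative without SE 1). The same replicate numbers did not mark paired libraries: the correlations of their deviations were -0.28 to 0.21. With the replicate block 0 members were called at each time, with median log2 fold changes of -0.13 at 1 h and -0.10 at 8 h. CPM scaled over all 19 libraries, also added after seeing the data, moved the counts of members with separated groups by at most 2. The depth limits the members with few counts. Mrpl53 and Mrps23 had none in any library, and whether their reads were left out or assigned elsewhere was not tested.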
